A study of Mus musculus with 4 samples.

Results

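The proteasome genes of mouse hepatocytes were taken from the gene table by name. All protein-coding genes whose symbol is Psma, Psmb, Psmc, Psmd, Psme, Psmf or Psmg followed by a number were members, which gave 50 of the 22079 genes in the table. The study sequenced mRNA from primary hepatocytes of C57BL/6 mice, with 2 wild-type libraries (WT 1 and WT 2) and 2 libraries from mice without a working Prom1 gene (KO 1 and KO 2, genotype Prom1-/-). All animals were 8 weeks old and male, and the labels call the 2 libraries of a genotype biological replicates. Every culture was attached for 4 hours in medium with 10% fetal bovine serum, 23 mM HEPES and 10 nM dexamethasone and was then kept without serum overnight. How the Prom1 allele was made is not given in the labels. The comparison asks how loss of Prom1 bears on the hepatocyte transcriptome under serum-free conditions.

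The proteasome is the protease that degrades most ubiquitin-tagged proteins of the cytosol and nucleus. Its barrel-shaped core is a stack of alpha rings and beta rings, and the beta rings hold the proteolytic sites. A cap of ATPases and other subunits binds ubiquitin chains, removes them and threads the substrate into the core. Interferon induces immune beta subunits that replace the constitutive catalytic ones in newly made cores and alter which peptides are cut for antigen presentation. Dedicated chaperones assemble core and cap and are not part of the finished particle.

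The labels and the cell type were checked first. The level of Prom1 was 0.571 FPKM (WT 1), 1.22 FPKM (WT 2), an exact 0 (KO 1) and 0.0458 FPKM (KO 2). FPKM is a level scaled to transcript length and to the mapped fragments of a library, so it can be compared between genes. At 1 FPKM or more were 10327 to 10424 genes, depending on the library, and with no counts in the table the depth behind a value is unknown. All 10 hepatocyte markers had a mean of at least 77.7 FPKM, although Alb was listed at 0 in WT 2, where Apoa1 stood at 6228 FPKM. An exact 0 can therefore be a failed estimate, and such values are described as listed at 0. Of 10 lymphocyte and pan-leukocyte markers, 6 were listed at 0 in every library (among them Cd3g, Cd8a and Nkg7), and the 10 summed to between 0.898 and 1.43 FPKM. Summed macrophage markers stood at 384 and 380 FPKM (WT 1, WT 2) against 436 and 504 FPKM (KO 1, KO 2), of which Cd68 made up 351 to 465 FPKM. Of the 10 macrophage markers tested, 7 were higher and 3 lower in KO, where 49.7% of all genes tested were higher. For 5 of the 10 the lower KO library exceeded the higher WT library, against 18.3% of all genes tested. For 1, C1qa, the higher KO library was under the lower WT library, against 19.8% of all genes tested. The lysozyme gene Lyz2 stood at 6.84 and 7.86 FPKM (WT) against 16.6 and 11.9 FPKM (KO), and the scavenger receptor gene Marco at 2.54 and 3.14 FPKM (WT) against 6.28 and 5.70 FPKM (KO). The macrophage gene Cd5l had 2.81 and 2.28 FPKM (WT) against 4.82 and 4.62 FPKM (KO). These 3 had unadjusted p-values of 0.0029, 0.00134 and 0.00425 by limma and adjusted p-values of 0.518, 0.47 and 0.519. They had the largest differences of the macrophage list. The 3 lower markers were C1qa, C1qb and C1qc, with differences in log2(FPKM + 1), KO minus WT, of -0.14, -0.04 and -0.15. Clec4f and Csf1r were at 0.02 and 0.05. Among the hepatocyte markers Hnf4a stood at 90.4 and 95.8 FPKM (WT) against 64.9 and 59.5 FPKM (KO; limma unadjusted p = 0.00134, adjusted p = 0.47). Of the 10 hepatocyte markers, 4 (Alb among them) were higher and 6 lower in KO. Genotypes did not overlap for 2 of the 10, Hnf4a and Apob, against 38.1% of all genes tested. Apob went the other way from Hnf4a, at 518 and 501 FPKM (WT) against 566 and 623 FPKM (KO). Summed sinusoidal endothelial markers stood at 56.0, 54.1, 78.7 and 40.9 FPKM in WT 1, WT 2, KO 1 and KO 2. Summed stellate cell markers stood at 14.1, 16.5, 24.8 and 10.9 FPKM in the same order, and cholangiocyte markers at 35.5, 32.4, 36.9 and 23.2 FPKM. For these last 3 lists KO 1 was the highest library and KO 2 the lowest. In bulk libraries, fewer cells of a type and less RNA per cell cannot be told apart.

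Libraries of both genotypes held nearly the whole set of proteasome genes, and the set had a high median level. Of the 50 members, 47 averaged 1 FPKM or more across the libraries, the condition for a test. Their median level was 56.6 FPKM, against 12.5 FPKM over all 10407 genes tested. Psmb9 and Psme2b, with means of 5.52 and 6.02 FPKM, lay under the median of all genes tested. Of the 3 untested members, the thymus-specific beta subunit gene Psmb11 was listed at 0 in all 4 libraries. Psma8, a testis-enriched alpha subunit gene, stood at 0.972, 0.223, 0.484 and 0.894 FPKM in WT 1, WT 2, KO 1 and KO 2. Psmc3ip matches the name rule but encodes a recombination factor and not a subunit, and it stood at 0.405, 0.147, 0.417 and 0.232 FPKM in the same order. None of these 3 can be compared between genotypes at such levels.

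**Figure D1:**
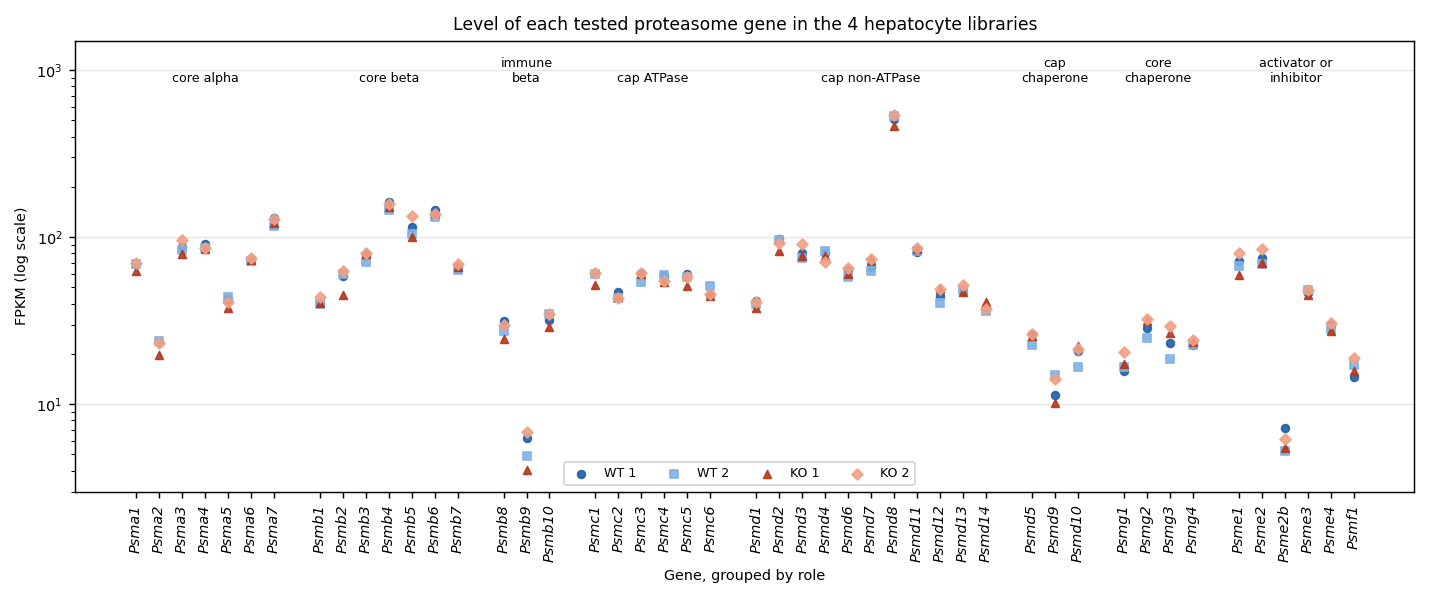
FPKM (log axis) of the 47 tested proteasome genes in WT 1, WT 2, KO 1 and KO 2, with 1 point per library and the genes grouped by role. Psmd8 stands above all others at 460 to 542 FPKM, and Psmb9 and Psme2b are the lowest at 4.04 to 7.23 FPKM.

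Levels differed between the roles. The 14 tested constitutive core genes had means from 22.7 to 154 FPKM with a median of 75.5 FPKM, and the 17 cap subunit genes had a median of 58.5 FPKM. The 7 assembly chaperone genes among the members were lower, from 12.7 to 29.3 FPKM, and the 3 immune subunit genes ran from 5.52 to 32.7 FPKM. Pomp, a core assembly factor gene that the name rule leaves out, had a mean of 54.1 FPKM, near the cap median. Within the core, Psmb4 was the highest at a mean of 154 FPKM, followed by Psmb6 at 138 FPKM and Psma7 at 124 FPKM. Psmb4 ran from 146 to 162 FPKM and Psmb6 from 131 to 145 FPKM, so their libraries did not overlap, while Psma7 ran from 116 to 130 FPKM and lay below both. Psma2 was the lowest core gene at 22.7 FPKM and the single one below the highest chaperone gene among the members, Psmg2. The 6 cap ATPase genes, whose products occur in equal copies in a ring, were close to each other at 44.2 to 59.0 FPKM. Psmd8, a cap subunit gene, stood at 512 and 532 FPKM (WT 1, WT 2) against 460 and 542 FPKM (KO 1, KO 2). Its lowest library lay above the highest library of every other member, 162 FPKM. The annotation has no other gene over its exons, and its 7 annotated transcripts run from 468 to 1983 bases.

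Several transcription factors are known for proteasome genes, and their motifs were sought in the 250 bases before each start. RefSeq entries on GRCm38.p6, the assembly called mm10, were found for 42 of the 50 members; Psma8, Psmb1, Psmb2, Psmb7, Psmc3, Psmd3, Psmd7 and Psmg2 had none. The antioxidant response element, bound by NRF1 and NRF2, was searched as TGACNNNGC on both strands. It was present in 5 of the 42 members (11.9%) and in 11.5% of all 27025 genes with an entry. The interferon-stimulated element, searched as TTCNNTTTC on both strands, was present in 3 members (7.14%, Psmb3, Psmd4 and Psmd9) and in 8.18% of all genes. A CCAAT box on either strand was present in 15 members (35.7%) and in 37.5% of all genes. The members' shares were thus near those of all genes for all 3 motifs, and no 2 matches of different motifs overlapped. The 5 stretches with an antioxidant response element are shown because NRF1 is the factor best known for raising proteasome genes; capitals mark the match, and each reads 5′ to 3′ on the gene's strand.
Psmb5: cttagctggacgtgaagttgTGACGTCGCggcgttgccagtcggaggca
Psmb6: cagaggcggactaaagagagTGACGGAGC
Psmc6: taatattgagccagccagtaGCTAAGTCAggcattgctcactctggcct
Psmd12: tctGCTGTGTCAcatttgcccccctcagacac
Psmd9: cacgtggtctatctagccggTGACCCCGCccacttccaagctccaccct
The stretches lie at chr14:54618014-54618062 (Psmb5, minus strand), chr11:70525328-70525356 (Psmb6), chr14:45329577-45329625 (Psmc6), chr11:107479278-107479309 (Psmd12) and chr5:123228139-123228187 (Psmd9), the last 4 on the plus strand. The match begins 47, 9, 227, 247 and 31 bases before the start in that order, and in Psmc6 and Psmd12 it reads on the opposite strand. A match is no evidence of binding. Psmb6 stood at 145, 131, 139 and 138 FPKM in WT 1, WT 2, KO 1 and KO 2, and Psmc6 at 45.2, 51.3, 44.4 and 45.7 FPKM. Of these 5 genes, Psmd12 alone had both KO libraries above both WT libraries, where 18.3% of all genes tested did. The values of Psmd12 are given with the cap below.

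No proteasome gene passed the test between genotypes. Of 47 tested members 0 had an adjusted p under 0.05 by limma with Benjamini-Hochberg adjustment, as did 0% of all 10407 genes tested. At an unadjusted p under 0.05 there was 1 member, Psmg3, while 7.29% of all genes tested were past that mark (3.1% higher and 4.19% lower in KO). By sign, 26 members were higher and 21 lower in KO, against 49.7% higher and 50.3% lower over all genes. Libraries of the genotypes did not overlap for 16 members, 10 with KO above and 6 with KO below, where 38.1% of all genes tested did not overlap (18.3% with KO above and 19.8% below). The median log2 difference of the members was 0.01, on the scale of log2(FPKM + 1), and that of all genes tested was 0.00. Differences of single members ran from -0.16 (Psmb2) to 0.41 (Psmg3). With 2 libraries on each side, the smallest two-sided p of an exact permutation test is 0.333.

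**Figure D2:**
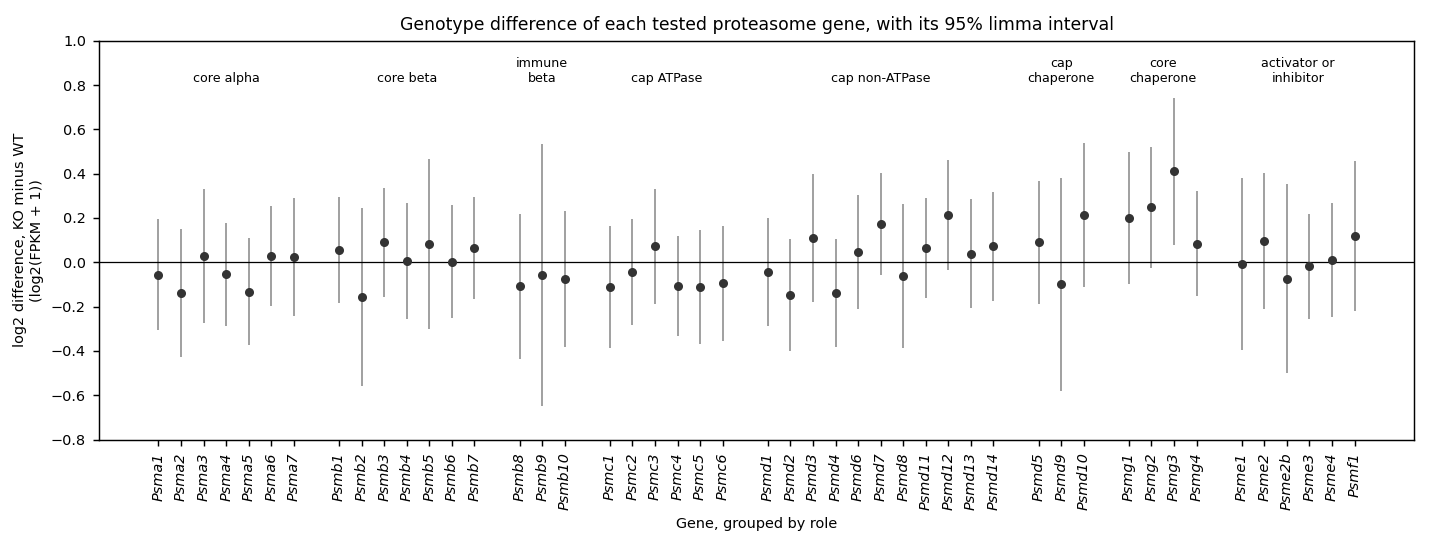
Log2 difference in log2(FPKM + 1), KO minus WT, of each of the 47 tested proteasome genes (points) with its 95% limma interval (lines), grouped by role. The 4 core assembly chaperone genes all lie above 0, and Psmg3, at 0.41, is the member whose interval, 0.08 to 0.74, does not include 0.

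Single libraries of a genotype differed by at least as much as the genotype means did. The median absolute difference of a member was 0.08 between genotypes, 0.09 between WT 1 and WT 2, and 0.12 between KO 1 and KO 2. Over all genes tested these medians were 0.12, 0.13 and 0.16. The first compares means of 2 libraries and the others single libraries, so the measures are unlike. KO 2 lay above KO 1 for 41 of the 47 members, against 53.2% of all genes tested. Summed over all genes, KO 1 had 498348 FPKM and KO 2 had 546967 FPKM. The part of these totals in the count of members was not tested. The counts by sign moved with the library left out. Without KO 1, 36 members were higher and 11 lower in KO, and without KO 2, 16 were higher and 31 lower. With WT 1 left out 30 were higher, and with WT 2 left out 20 were. The sign of 25 members changed with at least 1 library left out, and 22 members had the same sign under every alternative tried. For the 16 members whose genotypes did not overlap, leaving out 1 library cannot change the sign.

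The alpha ring genes, which form the outer rings and the gate of the core, differed by -0.14 to 0.03 with a median of -0.06. Of the 7 tested, 3 were higher and 4 lower in KO. Against 19.8% of all genes tested, 3 of the 7 had both KO libraries below both WT libraries. Psma5 stood at 42.6 and 43.9 FPKM (WT 1, WT 2) against 37.7 and 41.1 FPKM (KO 1, KO 2), a log2 difference of -0.13 (SE 0.10, limma adjusted p = 0.813). Psma2 stood at 23.6 and 23.9 FPKM (WT) against 19.7 and 23.4 FPKM (KO; log2 difference -0.14, 95% interval -0.43 to 0.15), with KO 2 close to the WT libraries. Psma4 stood at 91.4 and 86.0 FPKM (WT) against 84.7 and 85.9 FPKM (KO; log2 difference -0.06). The remaining alpha genes Psma1, Psma3, Psma6 and Psma7 had overlapping libraries.

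The constitutive beta ring genes differed by -0.16 to 0.09 with a median of 0.06. Of 7, 6 were higher in KO, where 49.7% of all genes tested were higher. Against 18.3% of all genes tested, 2 of the 7 had both KO libraries above both WT libraries. These were Psmb3, a structural subunit gene at 78.7 and 71.4 FPKM (WT) against 79.6 and 80.1 FPKM (KO; log2 difference 0.09), and Psmb7, which encodes the trypsin-like site and stood at 65.9 and 63.6 FPKM (WT) against 66.3 and 69.2 FPKM (KO; log2 difference 0.06). In both genes the higher WT library and the lower KO library were less than 1.0 FPKM apart. Psmb5, the gene of the chymotrypsin-like site, stood at 114 and 105 FPKM (WT) against 100.4 and 134 FPKM (KO), so its KO libraries lay on either side of WT (0.08, 95% interval -0.30 to 0.47). Psmb6, the gene of the caspase-like site, did not separate the genotypes either (0.00, 95% interval -0.25 to 0.26). Psmb2, a structural subunit gene, stood at 58.8 and 60.3 FPKM (WT) against 45.2 and 62.8 FPKM (KO). Its difference of -0.16 was -0.39 without KO 2 and 0.08 without KO 1, so KO 1 set its sign.

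The immune subunit genes were expressed in every library and did not differ by genotype beyond their spread. On GRCm38 (GENCODE M21), Psmb8 lies at chr17:34197721-34201454 on the plus strand, Psmb9 at chr17:34181987-34187764 on the minus strand and Psmb10 at chr8:105935735-105938444 on the minus strand. Psmb8, which replaces Psmb5, stood at 31.3 and 27.5 FPKM (WT 1, WT 2) against 24.6 and 30.0 FPKM (KO 1, KO 2). Psmb9, which replaces Psmb6, was the lowest of the 3 at 6.26 and 4.91 FPKM (WT) against 4.04 and 6.86 FPKM (KO). Psmb10, which replaces Psmb7, stood at 32.1 and 34.9 FPKM (WT) against 28.8 and 34.8 FPKM (KO). In all 3 genes KO 1 was the lowest library, and the genotypes overlapped. Their log2 differences were -0.11 (95% interval -0.44 to 0.22), -0.06 (-0.65 to 0.53) and -0.08 (-0.38 to 0.23), with limma adjusted p-values of 0.882, 0.979 and 0.919. Without KO 1 the values of Psmb8, Psmb9 and Psmb10 were 0.03, 0.26 and 0.06, and so turned positive; that of Psmb9 was also positive without WT 1, at 0.09.

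Set against the gene it replaces, Psmb10 had the highest share and Psmb9 the lowest in every library. Psmb8 was at 27.4% and 26.2% of Psmb5 in WT 1 and WT 2 and at 24.5% and 22.3% in KO 1 and KO 2. Both KO values lay below both WT values, a log2 difference of -0.20 that ran from -0.26 to -0.13 with a library left out. With the values so placed, leaving a library out cannot change the sign. Of single genes tested, 19.8% had both KO libraries below both WT libraries, and no such share was computed for ratios. KO 1 reached its low value with the lowest Psmb8 of the 4 libraries, and KO 2 with the highest Psmb5. Psmb9 was at 4.31% and 3.74% of Psmb6 in WT and at 2.91% and 4.97% in KO, and Psmb10 was at 48.7% and 54.8% of Psmb7 in WT and at 43.4% and 50.3% in KO. These pairs overlapped between genotypes. The ratios are a description of 4 libraries and were not tested.

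**Figure D3:**
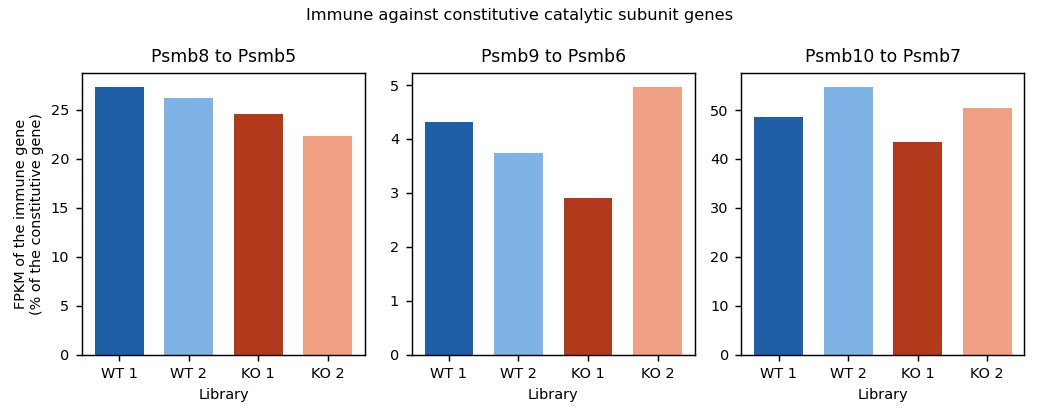
FPKM of each immune subunit gene as a percent of the constitutive gene it replaces (bars from 0; the 3 panels have different scales), with 1 bar per library. Psmb8 to Psmb5 runs from 27.4% in WT 1 to 22.3% in KO 2, while Psmb9 to Psmb6 (2.91% to 4.97%) and Psmb10 to Psmb7 (43.4% to 54.8%) overlap between genotypes.

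Genes around the immune subunits gave the following values. The list of interferon-gamma signalling and class I presentation genes had 15 tested members, of which 6 were higher and 9 lower in KO, with a median of -0.02 and 0 past the adjusted threshold. Irf1, which drives the immune subunit genes, stood at 20.6 and 19.0 FPKM (WT) against 16.1 and 16.4 FPKM (KO; log2 difference -0.26, limma unadjusted p = 0.0434, adjusted p = 0.681), and Irf2 at 13.2 and 14.4 FPKM (WT) against 11.4 and 11.2 FPKM (KO; log2 difference -0.27, adjusted p = 0.684). Tap2, a subunit of the peptide transporter, stood the other way at 30.3 and 31.6 FPKM (WT) against 34.4 and 37.1 FPKM (KO; log2 difference 0.20, adjusted p = 0.711). For these 3 genes, which are among the 4 of the list with the largest absolute differences, the genotypes did not overlap. Over the whole list they did not overlap for 5 of 15 genes, 1 with KO above and 4 with KO below. Of all genes tested, 38.1% did not overlap. Psmb9 shares its upstream region with Tap1, the partner of Tap2: on chromosome 17 their RefSeq starts, at 34187330 on the minus and 34187556 on the plus strand, point away from each other with 225 bases between them. Tap1 stood at 39.2, 47.7, 37.4 and 46.8 FPKM in WT 1, WT 2, KO 1 and KO 2, so that it was higher than Psmb9 in every library. Annotated exons of the pair overlap on opposite strands. The libraries were made with a strand-marking kit, but how strand was treated in counting is not stated in the labels, so the value of Psmb9 is uncertain to that extent. The same holds for Psma4, Psma5, Psmb7, Psmb8, Psmc3, Psmd1, Psmd3, Psmd9, Psmd13 and Psme1, which also have an antisense gene over an exon, while Psmb5, Psmd1, Psme2b and Psmg3 share exon sequence with a gene on their own strand.

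The interferon-inducible activator genes Psme1 and Psme2, whose products form a ring that opens the core without ATP, stood near each other. Psme1 was at 71.8 and 67.2 FPKM (WT) against 59.3 and 80.5 FPKM (KO; log2 difference -0.01, 95% interval -0.40 to 0.38), and Psme2 at 75.0 and 69.5 FPKM (WT) against 70.1 and 85.0 FPKM (KO; log2 difference 0.10, -0.21 to 0.40). In both genes KO 2 was the highest library, and the genotypes overlapped. Psme2b, a near copy of Psme2, stood at 7.23 and 5.24 FPKM (WT) against 5.45 and 6.19 FPKM (KO); fragments of Psme2 can be assigned to it, so its value is uncertain. Psmf1, which encodes an inhibitor of the core, stood at 14.6 and 17.1 FPKM (WT) against 15.8 and 18.8 FPKM (KO; log2 difference 0.12). The nuclear activator genes Psme3 (45.1 to 48.4 FPKM) and Psme4 (27.6 to 30.6 FPKM) varied little over the 4 libraries. All 6 genes of this group had overlapping genotypes, where 38.1% of all genes tested did not overlap. Of the 6, 3 had a higher and 3 a lower mean of log2(FPKM + 1) in KO.

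The cap ATPase genes, whose products unfold the substrate, differed by -0.11 to 0.07 with a median of -0.10. Of 6, 5 were lower and 1, Psmc3, was higher in KO. Over all genes tested, 50.3% were lower, and 19.8% had both KO libraries below both WT libraries. Psmc4 was the 1 gene with both KO libraries below both WT libraries, at 58.4 and 59.2 FPKM (WT) against 54.2 and 54.9 FPKM (KO; log2 difference -0.11, SE 0.09, limma adjusted p = 0.823). Psmc5 stood at 60.0 and 57.5 FPKM (WT) against 51.1 and 57.7 FPKM (KO; log2 difference -0.11), and Psmc1 at 61.4 and 60.1 FPKM (WT) against 51.9 and 60.8 FPKM (KO; log2 difference -0.11). In these last 2 genes KO 1 was low and KO 2 was at the WT level.

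Non-ATPase genes of the cap had differences from -0.15 to 0.21 with a median of 0.05. Of 11, 7 were higher and 4 lower in KO. Genotypes did not overlap for 5, with 3 above and 2 below, where 38.1% of all genes tested did not overlap. Psmd12, a lid scaffold gene, stood at 44.5 and 40.1 FPKM (WT) against 49.2 and 49.2 FPKM (KO; log2 difference 0.21, 95% interval -0.03 to 0.46, limma adjusted p = 0.703). Psmd7, which partners the deubiquitinase of the lid, stood at 66.6 and 62.9 FPKM (WT) against 72.7 and 73.5 FPKM (KO; log2 difference 0.17, adjusted p = 0.733). Psmd11, another lid gene, was the third with both KO libraries above, at 81.4 and 82.3 FPKM against 85.4 and 85.9 FPKM (0.06). On the other side were Psmd2, the large scaffold of the cap base, at 97.2 and 96.0 FPKM (WT) against 82.5 and 92.0 FPKM (KO; log2 difference -0.15, adjusted p = 0.796), and the ubiquitin receptor gene Psmd4, at 80.3 and 82.5 FPKM (WT) against 77.2 and 70.7 FPKM (KO; log2 difference -0.14). The deubiquitinase gene Psmd14 (36.2 to 40.7 FPKM) had overlapping libraries, and so did the remaining 5 genes.

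The 4 core assembly chaperone genes among the members had the highest median difference of the 8 role groups with tested members. Psmg1 and Psmg2 encode the pair that builds the alpha ring, and Psmg3 and Psmg4 a second pair that acts with it. Psmg3 stood at 23.3 and 18.7 FPKM (WT 1, WT 2) against 26.7 and 29.5 FPKM (KO 1, KO 2), a log2 difference of 0.41 (SE 0.14; limma unadjusted p = 0.0233, adjusted p = 0.602). Psmg2 stood at 28.7 and 24.8 FPKM (WT) against 31.6 and 32.2 FPKM (KO), a difference of 0.25 (95% interval -0.02 to 0.52, adjusted p = 0.689). For both genes WT 2 was the lowest library. Psmg1 stood at 15.8 and 16.7 FPKM (WT) against 17.3 and 20.4 FPKM (KO; log2 difference 0.20, interval -0.10 to 0.50), and Psmg4 at 22.5 and 22.6 FPKM (WT) against 23.7 and 24.3 FPKM (KO; log2 difference 0.08, interval -0.15 to 0.32). In all 4 genes the lower KO library exceeded the higher WT library, as in 18.3% of all genes tested, and 0 of the 4 passed the adjusted threshold. The median of the 4 was 0.22, from 0.16 to 0.29 with a library left out, against 0.01 over all members. Since none of the 4 overlapped between genotypes, leaving out 1 library could not change the sign of that median. Pomp, a core assembly factor gene outside the name rule, overlapped between genotypes. It stood at 49.4 and 56.3 FPKM (WT) against 56.9 and 54.0 FPKM (KO), a log2 difference of 0.07, or -0.02 without WT 1. Psmg3 was at 0.26 without WT 2, where 0 members reached an unadjusted p under 0.05, and at 0.56 without WT 1. The 4 genes lie on chromosomes 16, 18, 5 and 13. Psmg3, at chr5:139823592-139826885 on the minus strand, shares exon sequence with Gm26938, which stood at 0.129 FPKM or less in every library.

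Of the 3 chaperone genes of cap assembly, 2 were higher and 1 lower in KO. Psmd10, also known as gankyrin, stood at 20.95 and 16.7 FPKM (WT) against 22.4 and 21.4 FPKM (KO; log2 difference 0.21, interval -0.11 to 0.54, limma adjusted p = 0.766), again with WT 2 as the lowest library. Psmd5 stood at 26.3 and 22.7 FPKM (WT) against 25.6 and 26.5 FPKM (KO; log2 difference 0.09). Psmd9 stood at 11.3 and 14.9 FPKM (WT) against 10.2 and 14.2 FPKM (KO; log2 difference -0.10), and its spread within each genotype exceeded the difference between them. No test of the 2 chaperone groups against each other was made, because genes of a group are not replicates.

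**Figure D4:**
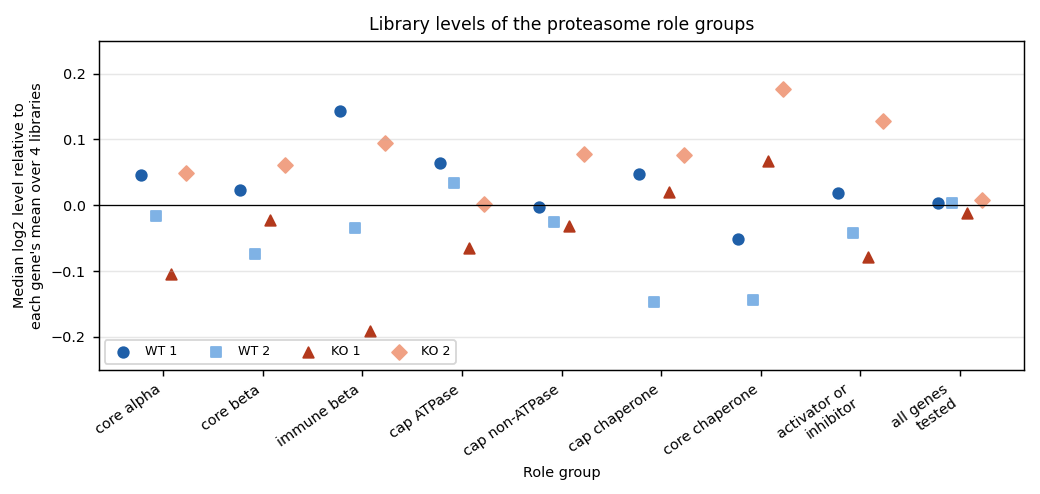
Median over the tested members of a role group of log2(FPKM + 1) relative to each gene's mean over the 4 libraries, with 1 point per library, and the same over all genes tested. The core chaperones are at -0.05 and -0.14 in WT 1 and WT 2 and at 0.07 and 0.18 in KO 1 and KO 2, and the immune subunits at 0.14, -0.03, -0.19 and 0.09 in the same order.

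Library medians showed which samples were high or low. The core chaperone medians of the KO libraries were above those of WT, and the cap ATPase medians of the KO libraries were below (0.06 and 0.03 in WT 1 and WT 2, -0.06 and 0.00 in KO 1 and KO 2). The tested macrophage markers had medians of -0.17 and -0.14 in WT 1 and WT 2 and of 0.07 and 0.13 in KO 1 and KO 2, the same order of genotypes as the core chaperones, and their part in the chaperone values was not tested. The other 6 groups overlapped between genotypes. For the immune subunits KO 1 was lowest (-0.19) and WT 1 highest (0.14). Summed endothelial and stellate cell markers went the other way and were highest in KO 1. The part of these markers in the immune subunit values was not tested. KO 1 was also the lowest library for the alpha ring (-0.10), the cap ATPases (-0.06), the cap non-ATPases (-0.03) and the activators and inhibitor (-0.08).

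Other genes of the pathway were read from the same fit. Among subunits and partners with other names, 10 genes were tested, 4 higher and 6 lower in KO, with a median of -0.05 and 0 past the adjusted threshold. The largest values were those of Txnl1, a cap-associated redox protein gene (-0.16), the cap deubiquitinase gene Usp14 (0.16), Ecpas (-0.14) and the small cap subunit gene Sem1 (-0.08). Genotypes did not overlap for 3 of the 10 genes, 2 with KO above and 1 with KO below, where 38.1% of all genes tested did not. Usp14 was among the higher, at 43.5 and 39.9 FPKM (WT) against 45.2 and 48.1 FPKM (KO), and Ecpas was the lower, at 29.9 and 26.8 FPKM (WT) against 24.7 and 26.7 FPKM (KO). Among genes that control proteasome expression, 9 were tested, 4 higher and 5 lower, with a median of -0.04. Nfe2l1, which encodes NRF1, stood at 60.8 and 52.5 FPKM (WT) against 65.6 and 65.9 FPKM (KO; log2 difference 0.22, interval -0.05 to 0.48, limma adjusted p = 0.724). Nfe2l2, which encodes NRF2, stood at 87.5 and 75.1 FPKM (WT) against 74.4 and 74.8 FPKM (KO; log2 difference -0.12). The protease gene Ddi2, whose product activates NRF1, differed by -0.11, and Mafg, a partner of both factors, by -0.10. Of 11 ubiquitin, E1 and shuttle factor genes, 5 were higher and 6 lower with a median of 0.00. Ubb had the largest value at 0.23, set by WT 1 at 52.2 FPKM, with 90.4 FPKM (WT 2), 78.7 FPKM (KO 1) and 83.4 FPKM (KO 2) in the others, and it was -0.16 without WT 1. Uba6 differed by 0.17 and Ubqln1 by -0.13.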

How the data were processed

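The 4 mRNA libraries were made from total RNA with a strand-marking kit, per the labels' protocols. The authors deposited a table with 1 value per gene and library, read here as FPKM from the tools named and from the values, since no column states the unit. Per the submitters' processing notes, STAR 2.5.0, Cufflinks, Cuffdiff 2.2.1 and build mm10 were used; the annotation and the treatment of strand are not stated there. Columns were matched to samples by title. Of 22079 identifiers, 22061 were matched to GENCODE M21. Values were taken as log2(FPKM + 1), which understates changes of low genes, and the 10407 genes that averaged 1 FPKM or more were compared between genotypes with limma 3.58.1 in R 4.3.3 (eBayes with trend, two-sided, Benjamini-Hochberg over all genes tested, threshold 0.05; 95% intervals). The script was tested on simulated data. Every member may be named. Library values are given for the immune genes and their counterparts, Psme1, Psme2, the 3 members of each other role group with the largest absolute moderated t, and members at an unadjusted p under 0.05; other lists give up to 4 genes by absolute log2 difference, and some of these are not reported here. Psma8, Psmb11 and Psmc3ip, under the filter, are given by value. Psma7, Psmb4, Psmc6, Psmd4, Psmd8, Psmd11, Psmd14, Psme3, Psme4 and Psmg4 are described beyond that rule, as are Tap1 and Pomp. So are the markers Lyz2, Marco, Cd5l, Cd68, C1qa, C1qb, C1qc, Clec4f, Csf1r, Apoa1, Apob, Alb and Hnf4a. All of these were chosen after their values were seen. Members and lists were chosen with earlier results of these data known. Promoter sequences are from RefSeq on GRCm38.p6. Alternatives tried were other pseudocounts, filters, scalings and variance models, a replicate block, and each library left out.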

Additional observations from a re-analysis of the deposited data

How the results depend on the processing

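No proteasome member passed an adjusted p of 0.05 by limma under any alternative tried. Over all genes 0 were called, and with 1 library left out 0 to 8 (8 without WT 1 and 5 without KO 1). Members higher in KO numbered 16 to 36 and members lower 11 to 31 with 1 library left out; these ranges, like those below, are the lowest and highest of the 4 values. Group medians ran from 0.060 to 0.19 for cap chaperones and from -0.065 to 0.15 for activators and the inhibitor. They ran from -0.11 to -0.037 for cap ATPases, from -0.25 to 0.056 for immune subunits and from 0.16 to 0.29 for core chaperones. All 4 core chaperone genes had both KO libraries above both WT libraries, so leaving out 1 library could not change the sign of their median. Values that changed sign with a library left out were those of Psma1 (-0.13 to 0.020), Psma3 (-0.11 to 0.17), Psma7 (-0.059 to 0.11), Psmb2 (-0.39 to 0.077), Psmb4 (-0.071 to 0.084), Psmb5 (-0.13 to 0.29), Psmb6 (-0.068 to 0.075), Psmb8 (-0.25 to 0.028), Psmb9 (-0.38 to 0.26), Psmb10 (-0.21 to 0.056), Psmc2 (-0.10 to 0.016), Psmc3 (-0.021 to 0.16), Psmd1 (-0.10 to 0.012), Psmd3 (-0.0062 to 0.23), Psmd5 (-0.013 to 0.19), Psmd6 (-0.028 to 0.12), Psmd8 (-0.18 to 0.054), Psmd9 (-0.32 to 0.12), Psmd13 (-0.033 to 0.11), Psme1 (-0.22 to 0.21), Psme2 (-0.042 to 0.23), Psme2b (-0.27 to 0.13), Psme3 (-0.068 to 0.031), Psme4 (-0.062 to 0.083), Psmf1 (-0.00064 to 0.24), Mafg (-0.23 to 0.032), Sem1 (-0.18 to 0.018) and Ubb (-0.16 to 0.62). Rescaling to a common total gave -0.000321 for Psmb6. Same-numbered libraries deviated from their group means with a correlation of 0.15 over 10407 genes, and nothing in the labels ties the numbers to a shared animal or day; with the replicate number as a block 0 genes and 0 members were called, Psmg3 had an unadjusted p of 0.0273, and the block changed no call. With a lone library in a genotype, it is assumed to vary like the other group. Arms of 2 libraries and FPKM without counts limit what can be seen.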
